A study of Drosophila melanogaster with 2 samples.

Results

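The proteasome subunit genes of Drosophila melanogaster were examined for binding of cropped (crp), a basic helix-loop-helix leucine zipper transcription factor related to vertebrate AP-4, which binds the E-box CAGCTG. Members were chosen by symbol as the protein-coding genes of the dm6 genome (Ensembl release 115) whose names begin with Prosalpha, Prosbeta, Rpn or Rpt, which gave 48 of 13968 genes. Chromatin immunoprecipitation with sequencing had been carried out with an antibody to GFP on whole embryos of both sexes, 0 to 16 hours old, from a transgenic line, crp-GFP, that makes the crp protein with GFP at its C terminus. The data form 1 group with 2 biological replicates, numbered 1 and 3. There is no untreated or mutant group, and the control experiment that the labels name was not analysed here. Because the embryos were whole, binding in a few cells and weak binding in many cannot be told apart.

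The proteasome is the large protease that degrades ubiquitin-tagged proteins. Its core particle is a barrel of outer alpha rings and inner beta rings, the latter holding the catalytic subunits, and a regulatory particle caps it. The base of that cap contains the Rpt ATPases, which unfold substrates, and the Rpn subunits that dock or recognise ubiquitin, while the lid contains the deubiquitinase Rpn11 and its scaffold. Flies also have extra copies of many subunits, marked by R or T after the subunit number, several of which are known from the male germ line. The members comprised 7 alpha ring, 7 beta ring, 10 base and 8 lid genes and 16 such paralogues.

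The deposited peak lists in dm6 were used. A candidate list of 30000 peaks had been made for each replicate, and the list from the pooled replicates held 26505 candidates. Another list held the 1122 peaks that had passed the authors' irreproducible discovery rate (IDR) procedure, which keeps peaks that rank high, and alike, in both replicates. Each peak carries the authors' signal value, the peak caller's measure of enrichment. It ran from 61.3 to 770.4 in the IDR list and down to 18.4 in the pooled list, with the lowest values of the replicate lists at 9.58 (replicate 1) and 10.9 (replicate 3). A gene without a candidate therefore had no peak above these floors, which is not an absence of binding. The depth of the libraries is unknown. A summit was assigned to each gene with an annotated transcript start within 1000 bp, so that a gene and its divergent neighbour could share a peak, and the strongest summit in the window stood for the gene.

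The sites that the results turn on are shown first, read from the dm6 reference on the strand of the member gene, with the E-box in capitals. They are the copy at the strongest peak of any member (Rpn9), another copy at the downstream start of the same gene, the copy beside the other called peak (Rpt3R), and the copy in the promoter of Rpt3, where the replicates differed. The windows lie at chr3R:23733207-23733236 and chr3R:23732982-23733011 (minus strand) for Rpn9, chr3R:9756463-9756492 (minus strand) for Rpt3R and chrX:11124929-11124958 (plus strand) for Rpt3.
Rpn9 summit: gcccaagccccgCAGCTGttgttatcgaat
Rpn9 start: ctgtcaatgtgaCAGCTGcgtcggcgattg
Rpt3R: aggtcggttcaaCAGCTGattgccattcac
Rpt3: gcaattatcagaCAGCTGattttttcccat

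Few proteasome genes carried a reproducible peak. An IDR summit lay within 1000 bp of a start of 2 of the 48 genes (4.17%, Wilson 95% interval 1.15 to 13.98%), namely Rpn9 and Rpt3R, against 11.1% of all protein-coding genes. The interval includes that background share. Candidates of any strength were about as common as elsewhere: the pooled list had one at 26 members (54.2%, 40.3 to 67.4%), against 50.7% of all genes. Of genes with a pooled candidate, 2 of 26 members and 21.9% of all genes had an IDR summit. By class, the count of genes with an IDR summit was 0 of 7 in the alpha ring (upper limit 35.4%), 0 of 7 in the beta ring (35.4%), 0 of 10 in the base (27.8%), 1 of 8 in the lid and 1 of 16 among the paralogues. The core particle thus had 0 of 14 and the regulatory particle 1 of 18. Classes of this size allow wide intervals, which overlap each other and the background.

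**Figure D1:**
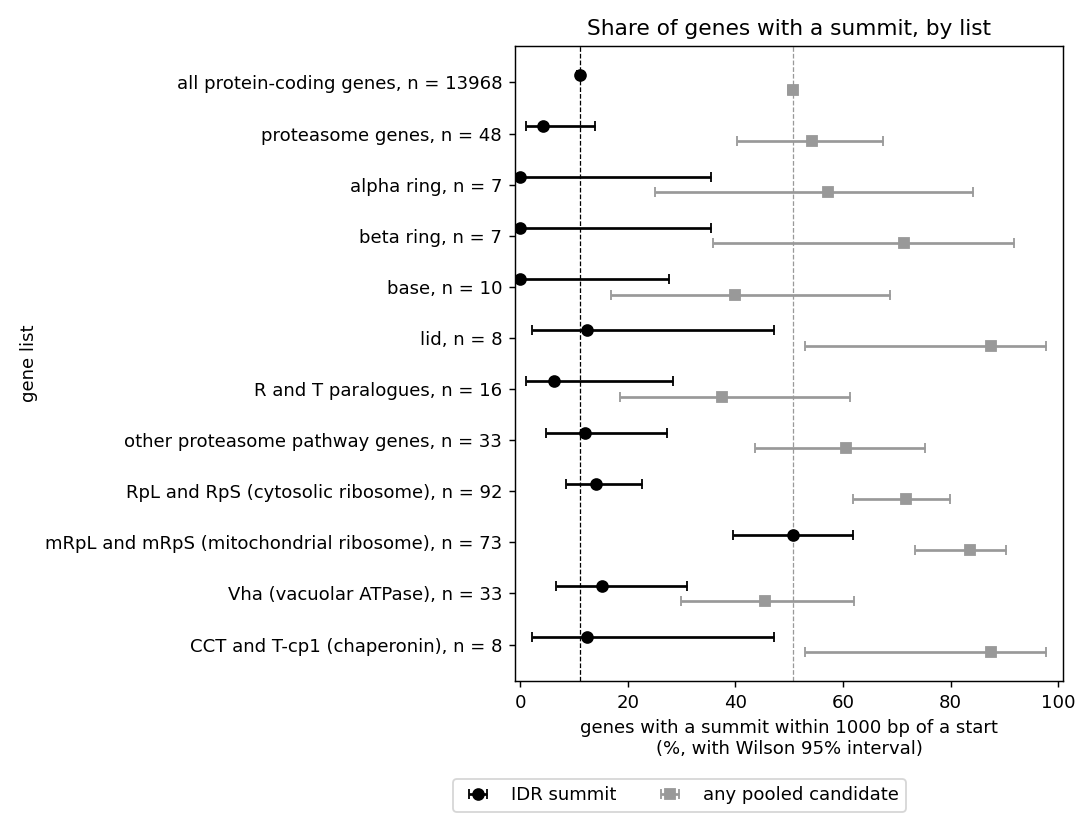
Share of genes in each list with an IDR summit (circles) or any pooled candidate (squares) within 1000 bp of a transcript start, in percent with Wilson 95% intervals that cover counting error only; dashed lines mark all protein-coding genes. The proteasome genes sit at 4.17% for IDR summits and 54.2% for candidates, beside 11.1% and 50.7% of all genes.

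Rpn9, a scaffold subunit of the lid (FBgn0028691, minus strand, chr3R:23731375-23733462), had by far the strongest peak of the members. Its pooled signal was 194.4, rank 171 of 26505, above that of 95.9% of the genes with a candidate. It was 120.2 in replicate 1 (rank 120 of 30000) and 75.2 in replicate 3 (rank 306), so it stood high in both, and the summits were 30 bp apart. The peak at chr3R:23733005-23733408 had its summit at 23733207, in an intron of Rpn9. That point is 196 bp upstream of the downstream start of Rpn9 (23733011) and 255 bp downstream of its 5′-most start (23733462). The first E-box shown above occupies 23733219 to 23733224, with its midpoint within 15 bp of the summit. Another copy, not shown, also lies inside this peak, 186.5 bp downstream of the 5′-most start.

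Rpt3R, a paralogue of the ATPase gene Rpt3 (FBgn0037742, minus strand, chr3R:9754735-9756510), had the other called peak. Its pooled signal was 84.5 (rank 812), with 41.2 in replicate 1 (rank 866) and 44.8 in replicate 3 (rank 757), and the replicate summits were 13 bp apart. The peak at chr3R:9756168-9756571 had its summit at 9756370, in an intron of Rpt3R, 140 bp downstream of the 5′-most start and 156 bp upstream of the second start. The summit lay 121 bp upstream of the start of Alg12, a divergent gene named for a mannosyltransferase of N-glycan assembly, and nearer to that neighbour's start than to the member's. No CAGCTG was within 100 bp of this pooled summit. The copy shown above was 107.5 bp from it and 95.5 bp from the summit of replicate 1. That copy lies between the summit and the start of Alg12. In a window of 2000 bp Rpt3R had a second IDR summit, of signal 97.5, which was 24 bp from a start of Tti1.

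When each IDR summit was given to its nearest gene alone, 0 of the 48 members kept one, against 7.14% of all genes. Of the 1550 genes with an IDR summit, the strongest one was nearest to the gene itself in 930. Head-to-head arrangement, with another gene's start within 1000 bp upstream on the other strand, was found for 26 of the 48 members (54.2%) and for 36.2% of all genes. It was found for 22 of the 32 subunits that are not paralogues (68.8%) and for 4 of the 16 paralogues. Of all genes so arranged 22.2% had an IDR summit, against 4.82% of the others, and of the members so arranged 2 of 26 had one (7.69%).

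**Figure D2:**
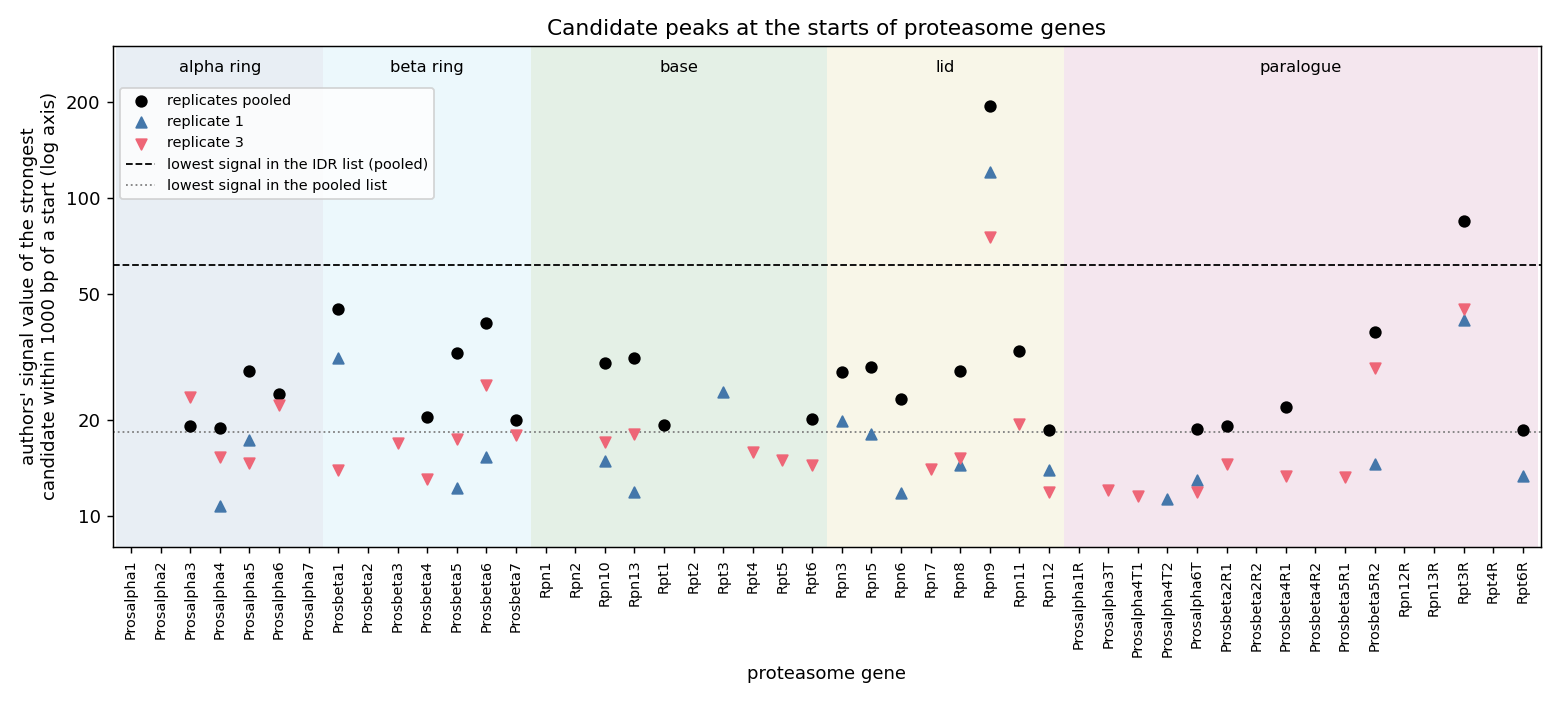
Authors' signal value (log axis) of the strongest candidate within 1000 bp of a start for each of the 48 proteasome genes, in the pooled list (circles), replicate 1 (upward triangles) and replicate 3 (downward triangles); a missing symbol means no candidate in that list. Rpn9 at 194.4 and Rpt3R at 84.5 are the 2 genes above the lowest IDR signal of 61.3 (dashed line), and the next, Prosbeta1, is at 44.7.

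Beneath the IDR set, a pooled candidate was present at 39.6% of all genes and at 24 of the 48 members. The signals of these 24 members ran from 18.6 to 44.7, which is 30.4% to 72.9% of the lowest IDR signal. By pooled signal, none of them was close to the border. Their median was 23.7, and that of all 5525 genes with a sub-threshold candidate was 25.6. With the called peaks included, the medians were 26.2 over 26 members and 28.4 over 7075 genes. Of the sub-threshold summits, 7 of 24 lay within 200 bp of a start (29.2%), and so did those of 29.4% of all sub-threshold genes. The summit was nearest to the member itself at 16 of the 24 (66.7%), against 79.6% over all sub-threshold genes. Coding exons held 9 of the summits, introns 7, intergenic sequence 4, 5′ UTRs 3 and a 3′ UTR 1. None of the 24 had CAGCTG within 50 bp of the summit, against 7.39% of all sub-threshold genes and 51.1% of all genes with an IDR summit.

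In the beta ring, Prosbeta1, a catalytic subunit, had the highest sub-threshold signal, 44.7 (rank 1686). Its summit lay 136 bp upstream of Prosbeta1 and 15 bp downstream of the start of the divergent gene Rrp42, of the RNA exosome. The replicates differed there, with 31.4 in replicate 1 (rank 1157) and 13.9 in replicate 3 (rank 16728), a log2 ratio of replicate 3 to replicate 1 of -1.17. Its promoter holds a DRE, an element described further on, 18.5 bp from the summit. That copy ends at the start of Rrp42. Prosbeta6, a structural subunit, had 40.5, with 15.3 in replicate 1 and 25.8 in replicate 3, 492 bp upstream of the start and in a coding exon of the neighbour Su(P). Prosbeta5, the chymotrypsin-like subunit, had 32.6, with 12.3 and 17.5, 375 bp upstream of its start and in the 5′ UTR of dgo. At both Prosbeta6 and Prosbeta5 replicate 3 was the higher, the reverse of Prosbeta1. Prosbeta4 had 20.5 and Prosbeta7 20.02, and each had a candidate in replicate 3 but none in replicate 1. At Prosbeta7 the strongest one lay 614 bp upstream and the pooled summit 849 bp upstream. No replicate candidate matched that pooled peak by 50% overlap. Prosbeta3 had one in replicate 3 alone, of 16.98, and Prosbeta2, another catalytic subunit, had none in any list.

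In the alpha ring, which forms the gated entrance of the core, Prosalpha5 led with 28.5, 742 bp downstream of a start, inside its own coding sequence. Its strongest candidates were 17.4 in replicate 1 and 14.6 in replicate 3, and these lay at different places, 1221 bp apart. A weaker replicate 3 candidate of 12.1 overlapped the pooled peak, so the pooled summit had a candidate in both replicates. Prosalpha6 had 24.1, Prosalpha3 19.2 and Prosalpha4 18.9, beside the floor of 18.4 in the pooled list. The summits of Prosalpha3 and Prosalpha4 were nearer to their neighbours dgt3 and kat80. Prosalpha1, Prosalpha2 and Prosalpha7 had no candidate in any list.

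In the lid, 7 of 8 genes had a pooled candidate, and Rpn9 alone was called. Rpn11, the deubiquitinase, had 32.9, 163 bp upstream of its start in intergenic sequence, with 19.4 in replicate 3 and no candidate in replicate 1. Rpn5 had 29.3, with 18.2 in replicate 1 and none in replicate 3, and its summit was nearer to Hat1, a histone acetyltransferase gene. Rpn8, the partner of Rpn11, had 28.6, with 14.5 and 15.2 in replicates 1 and 3, 17 bp apart, and its pooled summit lay 385 bp downstream of its second start. Rpn3 had 28.2, Rpn6 23.3 and Rpn12 18.6, and Rpn7 had a candidate in replicate 3 alone, of 14.1. Apart from Rpn9, no lid gene exceeded 19.8 in replicate 1 or 19.4 in replicate 3.

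In the base, the ubiquitin receptors Rpn13 and Rpn10 had the highest signals. Rpn13 had 31.2, with 11.9 in replicate 1 and 18.1 in replicate 3, but the summit lay 751 bp upstream of Rpn13 and 26 bp from the start of the protease gene CtsL1. Rpn10 had 30.2, 450 bp upstream of its start, where replicate 1 had 10.1 and replicate 3 had 17.1. A second pooled candidate of 26.9 lay 205 bp upstream, near candidates of 14.9 in replicate 1 and 11.2 in replicate 3, so both places had a candidate in each replicate. Of the ATPases, Rpt6 had 20.1 and Rpt1 19.3, whereas Rpt2 had no candidate in any list and Rpt3, Rpt4 and Rpt5 had one in a single replicate. An IDR peak of signal 87.9 lay 1533 bp upstream of Rpt1, outside the window, and 89 bp downstream of the start of CG30491. The scaffold genes Rpn1 and Rpn2 had none in any list.

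Rpt3 is the base gene with an E-box in its promoter. The site lies 157 bp upstream of the start, and replicate 1 had a candidate 36.5 bp from it at a signal of 24.5 (rank 1648 of 30000). Neither replicate 3 nor the pooled list had a candidate in the window. Rpt3 has a head-to-head neighbour, so the replicate 1 candidate may be shared with that gene.

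Among the paralogues, after Rpt3R the highest was Prosbeta5R2, with 37.7, and 14.6 in replicate 1 and 29.2 in replicate 3, 99 bp apart, 646 bp upstream of its start. Prosbeta4R1 had 22.0, Prosbeta2R1 19.2, Prosalpha6T 18.8 and Rpt6R 18.7. Prosalpha3T, Prosalpha4T1 and Prosbeta5R1 had a candidate in replicate 3 alone and Prosalpha4T2 in replicate 1 alone. Prosalpha1R, Prosbeta2R2, Prosbeta4R2, Rpn12R, Rpn13R and Rpt4R had none in any list. The paralogues had pooled candidates at 6 of 16 genes (37.5%) and the other subunits at 20 of 32 (62.5%), with Wilson intervals of 18.5 to 61.4% and 45.3 to 77.1% that overlap. How the authors placed reads that match several copies of a gene is unknown here.

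Many weak candidates appeared in a single replicate. Of the 24 sub-threshold members, 11 had a candidate somewhere in the window in both replicates (45.8%), as had 58.4% of all sub-threshold genes. Another 4 had one in replicate 1 alone, 8 in replicate 3 alone, and Rpt1 in neither. Over all 48 members, 19 had a candidate in replicate 1, 28 in replicate 3 and 13 in both (27.1%), where the shares of all genes were 52.2%, 54.8% and 37.1%. No list had a candidate at 13 members (27.1%), against 28.8% of all genes. Among the 13 with both, the strongest candidates had summits within 50 bp of each other at 5, so other ratios can compare different places. By raw signal value, replicate 3 was higher at 8 and replicate 1 at 5. The medians of the whole lists were 12.5 in replicate 1 and 14.5 in replicate 3, so raw values do not compare the replicates directly. The log2 ratios of replicate 3 to replicate 1 ran from -1.17 to 1.00. Their median was 0.12 with an SD of 0.60, and over the 5181 genes with both it was 0.06 with an SD of 0.54. In the order of the 24 sub-threshold members by pooled signal, the largest gap between neighbours was 0.23 on the log2 scale. The lists give no error for a pooled signal, so whether this order would hold was not tested.

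**Figure D3:**
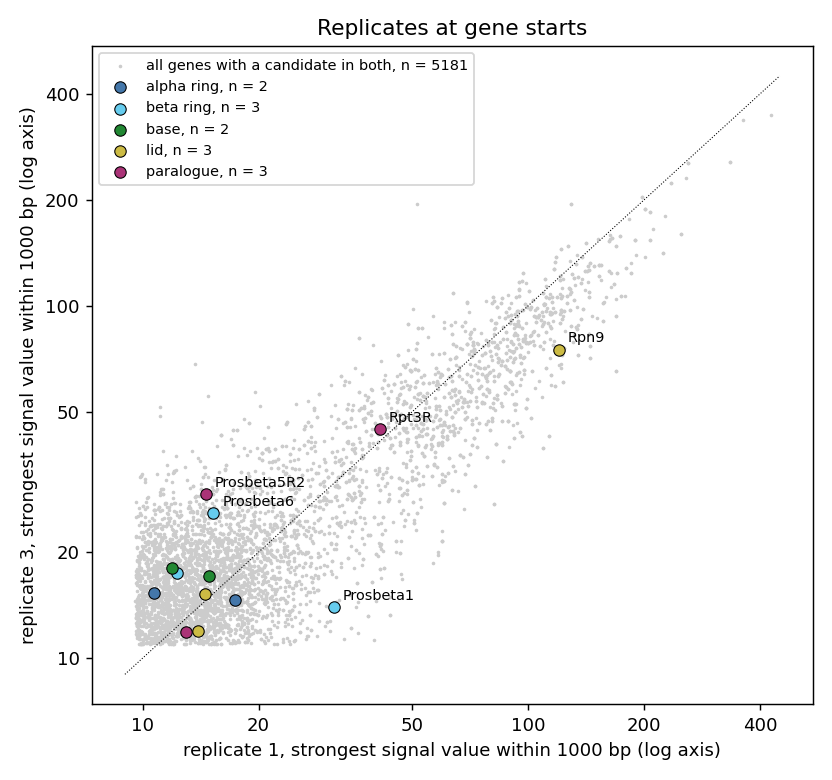
Strongest signal value within 1000 bp of a start in replicate 1 (horizontal) and replicate 3 (vertical), both on log axes, for the 5181 genes with a candidate in both (grey) and the 13 proteasome genes among them (coloured by class); the dotted line marks equality. Rpn9 (120.2 and 75.2) and Rpt3R (41.2 and 44.8) stand apart from the other 11, of which none exceeds 31.4 in replicate 1 or 29.2 in replicate 3. The values of a gene may come from different places in the window.

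The promoters of proteasome genes seldom held the E-box of cropped. From 250 bp upstream to 50 bp downstream of the start nearest the 5′ end of the gene, CAGCTG (a palindrome, so both strands read alike) was present in 2 of 48 promoters (4.17%), those of Rpt3 and Rpt3R, and in 17.7% of all promoters. Within 1000 bp on either side it was present at 26 members (54.2%) and at 64.6% of all genes. Over all genes an IDR summit accompanied 39.3% of the promoters with the site and 5.03% of those without it. Among the members it accompanied 1 of the 2 promoters with the site and 1 of the 46 without (2.17%). The gene in the latter case is Rpn9, which had 3 copies 186.5, 240.5 and 465.5 bp downstream of its 5′-most start, outside that window. The 240.5 bp copy is the one at the summit, and the 186.5 bp copy also lies inside the called peak. The 465.5 bp copy is the one at the second start, just outside the peak. Counting every annotated start added Rpn9 and Rpn8, for 4 of 48 members against 22.3% of all genes.

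**Figure D4:**
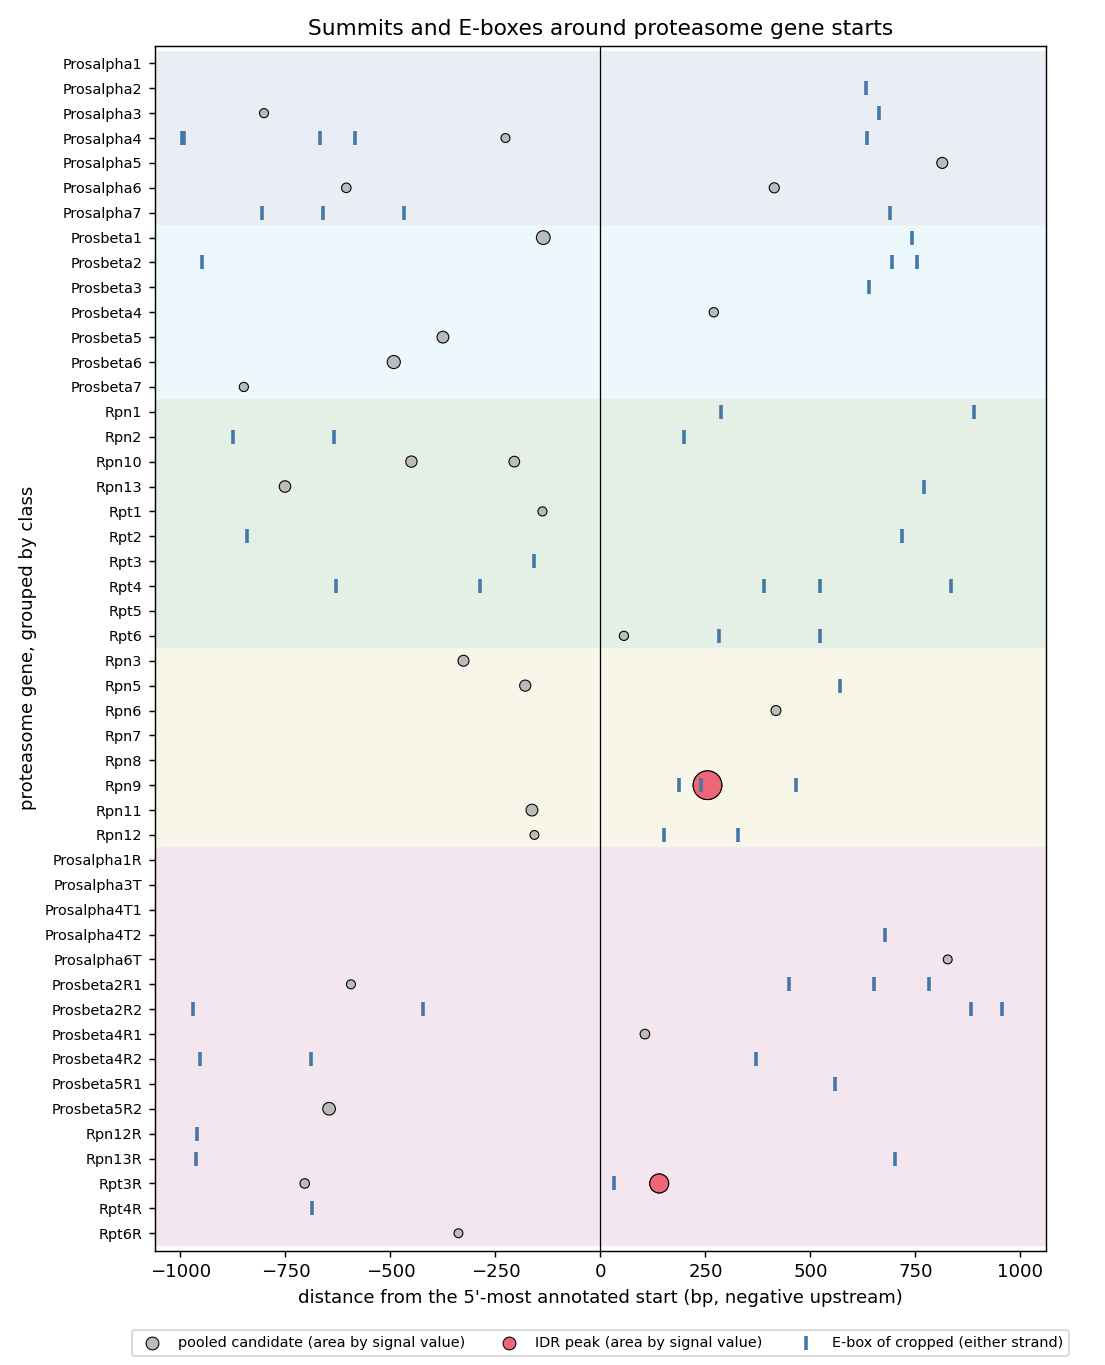
Positions of pooled candidates (grey circles), IDR peaks (red circles, area by signal value) and CAGCTG copies (blue ticks) by distance in bp from the 5′-most start of each proteasome gene, with rows grouped by class from alpha ring (top) to paralogues (bottom). The map holds 55 copies of the E-box at 26 members, 1 of them at the Rpn9 summit and another inside the same peak. The 2 pooled candidates of Rpn8, assigned through its second start, fall outside the axis.

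Another sequence was shared by more members. The DNA replication-related element TATCGATA (DRE), a palindrome bound by the factor DREF at promoters of fly housekeeping genes, was present in 12 of the 48 promoters (25%), against 9.36% of all promoters. All 12 were among the 32 subunits that are not paralogues (37.5%), and 0 of 16 paralogues had it in this window. With so few paralogues, a count of 0 does not show a share below the 9.36% of all promoters. These counts hold for the 5′-most starts. With every annotated start counted, 13 members had the element (10.2% of all genes). The added one was the paralogue Rpt3R, with a copy 41 bp upstream of its second start and 114.5 bp from its called summit. The 12 comprised Prosalpha3, Prosalpha5 and Prosalpha6 of the alpha ring, Prosbeta1, Prosbeta2 and Prosbeta6 of the beta ring, Rpn13 and Rpt5 of the base, and Rpn3, Rpn7, Rpn9 and Rpn12 of the lid. Of these 12, 1 had an IDR summit, Rpn9, beside 11.1% of all genes. The share over all genes with a DRE in the promoter was not computed. In the same window the DRE was in 30.4% of the RpL and RpS promoters, 20.5% of the mRpL and mRpS promoters, 2 of 8 chaperonin promoters, 2 of 8 COP9 signalosome promoters and 6.06% of the Vha promoters, so shares near that of the proteasome genes were found in other complexes. The core of motif 1, a common element of fly promoters, searched as GGTCACAC on both strands, was in 5 of 48 (10.4%, against 7.70%). The core of the site of cnc with a Maf partner, searched as TGACNNNGC on both strands, was in 6 of 48 (12.5%, against 8.63%). Cnc is the fly relative of the vertebrate factors Nrf1 and Nrf2 and is known to drive proteasome genes. TATAAA was in 18 of 48 (37.5%, against 45.9%) and CACGTG, bound by Myc with Max, in 1 (2.08%, against 4.23%). These are matches of letters, not sites shown to be bound.

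To show how the element is placed, windows around it are given for 7 of these members, 5′ to 3′ on the strand of the gene, with the DRE in capitals. They lie at chr2L:10221324-10221353 (Prosalpha6, plus strand), chr3L:14999930-14999959 (Prosbeta2, plus), chr3L:16610444-16610473 (Prosbeta6, minus), chr2L:19051582-19051611 (Rpn3, plus), chr3R:22462033-22462062 (Rpn7, minus), chr3L:16582801-16582830 (Rpn12, plus) and chr3R:23752819-23752848 (Rpt5, plus). The element lay 6 to 42 bp upstream of the start in Prosbeta2, Prosalpha6, Prosbeta6 and Rpt5, 193 bp upstream in Rpn3, 212 bp upstream in Rpn12, and downstream in Rpn7. The Rpn3 copy shown also lies inside the divergent neighbour l(2)37Bb, near its start. Rpn3 had another copy 59 bp upstream of its second start. In the members not shown, the element lay upstream by 16 bp in Prosalpha5, 91 bp in Prosalpha3, 117 bp in Prosbeta1 and 213 bp in Rpn13. In Rpn9 it lay 29 bp downstream of the 5′-most start.
Prosalpha6: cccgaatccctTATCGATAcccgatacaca
Prosbeta2: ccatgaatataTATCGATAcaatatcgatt
Prosbeta6: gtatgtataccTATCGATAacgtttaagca
Rpn3: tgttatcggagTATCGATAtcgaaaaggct
Rpn7: gcggtataattTATCGATAattttggggtc
Rpn12: ttgttaaaataTATCGATAttaaagcacaa
Rpt5: atcgctgtcacTATCGATAagcgccggcga

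**Figure D5:**
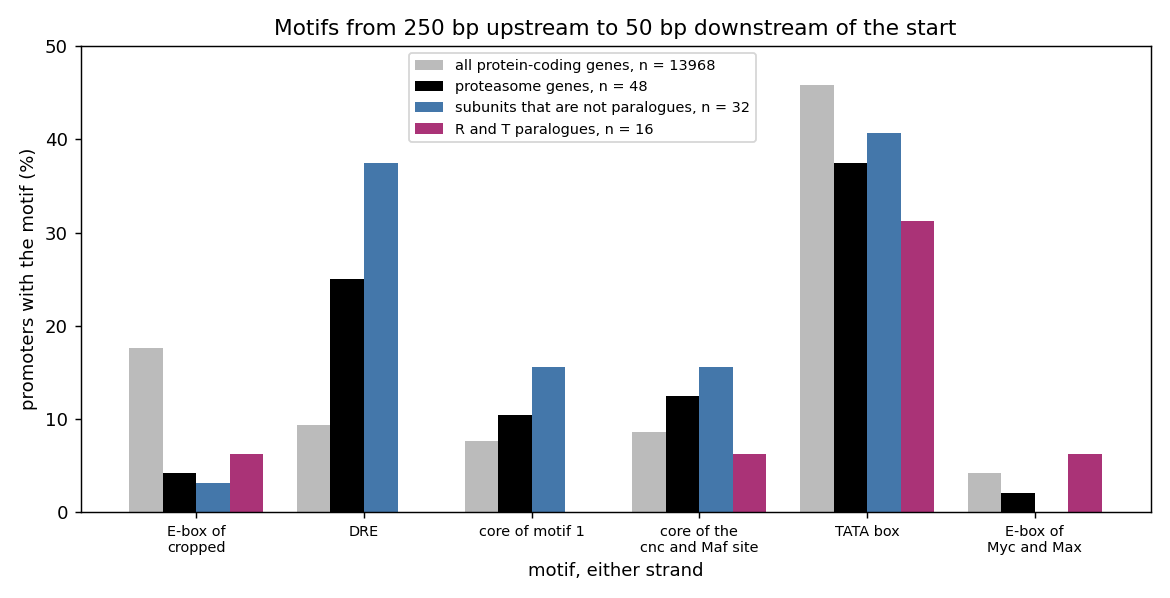
Share of promoters, in percent, that hold each motif on either strand from 250 bp upstream to 50 bp downstream of the 5′-most start, for all protein-coding genes, the proteasome genes, the subunits that are not paralogues and the paralogues. The DRE reaches 37.5% in the 32 subunits and 0% in the 16 paralogues beside 9.36% of all genes. The E-box of cropped is at 4.17% of the proteasome genes beside 17.7%.

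Genes that work with the proteasome, and the small lid subunit gene Sem1, whose symbol lies outside the naming rule, were examined in 5 lists of 33 genes in all, of which 4 had an IDR summit (12.1%, 4.82 to 27.3%), near the 11.1% of all genes. Of the regulators, Keap1, which holds the factor cnc in check, had a pooled signal of 64.0 (replicate 1 at 32.3, replicate 3 at 36.3), 38 bp upstream of its start and with CAGCTG within 50 bp of the summit. Hrd3, of the degradation pathway of the endoplasmic reticulum, had 82.3 (40.8 and 41.1), nearer to PTPMT1. Of 7 activator and assembly genes, ntc, an F-box protein gene known from the fly testis, had 107.8 (51.8 and 56.2), nearer to CG32264. Of the COP9 signalosome, a relative of the lid, 1 of 8 genes was called. This was alien, with 185.7 (93.5 and 88.7), nearer to CG18661. None of the 5 ubiquitin genes or the 7 shuttle and p97 genes had an IDR summit.

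Other large complexes, taken by symbol prefix, are given for scale. An IDR summit was present at 13 of 92 RpL and RpS genes (14.1%), 5 of 33 Vha genes (15.2%) and 1 of 8 chaperonin genes (12.5%). It was present at 37 of 73 mRpL and mRpS genes (50.7%, 39.5 to 61.8%), an interval that does not overlap that of the proteasome genes. These differences were not tested.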

How the data were processed

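Peaks came from the authors' deposited dm6 narrowPeak lists of chromatin of crp-GFP embryos. Per the labels, chromatin was sonicated to 200 to 800 bp. The authors deposited a signal value for each peak and the distance in bp from its start to its summit; no source used here names the peak caller, the aligner or the IDR threshold. The dm3 lists were not used. Signal values were compared within a list, and replicate ratios were read beside those of all genes. Starts came from the Ensembl release 115 annotation and sequence from the dm6 RefSeq assembly, with Python 3.11.15, NumPy 2.4.6, pandas 2.3.3, SciPy 1.17.1 and Matplotlib 3.10.9. Assignment and motif search were tested on simulated data. Motifs at summits were sought in 101 bp. Wilson intervals are at 95% and cover counting error only, and genes that share a peak are not independent. No significance test was run. All members are described; values are given in full for the called genes and the 10 strongest others. The members and lists were chosen with earlier results of these data known. Of the symbols of the pathway lists, Ecm29 matched no gene and was left out. A result for a neighbouring gene is not reported here.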

Additional observations from a re-analysis of the deposited data

How the results depend on the processing

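No paired analysis was possible because there is a single group. The count of 2 called members was also 2 with a 500 bp window (10.2% of all genes) and with the 5′-most start (10.6%), in each case Rpn9 and Rpt3R. It was 3 with a 2000 bp window (13.1% of all genes), 1 with the stronger 50% of the IDR list (Rpn9, 6.49% of all genes) and 0 with the nearest gene alone. The IDR procedure needs both replicates. With 1 replicate left out, the strongest 1122 candidates of the other were counted instead. These were at Rpn9 and Rpt3R again, and at 10.7% of all genes without replicate 1 and 11.2% without replicate 3. Prosbeta1, at rank 1157 in replicate 1, fell just outside the latter. The sub-threshold count of 24 members (against 39.6% of all genes) was 17 with a 500 bp window (27.4%) and 29 with a 2000 bp window (53.1%). The median signal of 26.2 (28.4 over all genes) was 28.2 (30.1) and 27.6 (28.4) in these windows. The median log2 ratio of the replicates was 0.12 over 11 members matched by 50% overlap and 0.16 over 12 by any overlap. CAGCTG was at 1 of 26 summits within 25, 50 or 100 bp. It was in 2 of 48 promoters, 5 with the window widened to 500 bp upstream and 100 bp downstream (27.3% of all genes), and 4 at any annotated start. The DRE count of 12 was 14 and 13 in these windows (11.6% and 10.2% of all genes), and the 13 include the paralogue Rpt3R. These promoter windows were chosen after seeing the data. Depth is unknown, so no limit on weaker binding can be given.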

Other observations

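The distance from a start of a proteasome gene to the nearest IDR summit had a median of 27639 bp, close to the 28371 bp of all protein-coding genes. It was 6520.5 bp for the 8 lid genes, 17279.5 bp for the 10 base genes, 17766 bp in the alpha ring, 25892 bp in the beta ring and 70208.5 bp for the 16 paralogues. The mRpL and mRpS genes had a median of 354 bp.

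Of the 22 members with no pooled candidate, 9 had one in a single replicate, 2 in replicate 1 and 7 in replicate 3. Those of replicate 3 reached 16.98 at most, at Prosbeta3, and the 24.5 of Rpt3 in replicate 1 was the highest. Among as many of the strongest candidates of each replicate as the IDR list has peaks, the members present were Rpn9 and Rpt3R, 2 of 48 in replicate 1 (11.2% of all genes) and 2 of 48 in replicate 3 (10.7%). These are the counts given above with 1 replicate left out.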
